A study of Rattus norvegicus with 418 samples.

Results

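The plasminogen activators and matrix proteases of rat liver were followed through 8 genes, Timp1, Plau, Plaur, Plat, Mmp9, Mmp12, Mmp13 and Mmp14, of 14217 genes measured on the same arrays. They are a part of this system, chosen by gene symbol with earlier results of these data known, and the array carried other genes of it. Each was read from the probe set with the highest mean signal among those named for it. The data came from 418 livers of male F344/N rats aged 10 to 12 weeks, with 1 array for each rat and RNA from the left lateral lobe. Each dosed group had received 1 of 8 hepatotoxic chemicals 6, 24 or 48 h earlier, and 318 dosed rats were set against 100 vehicle rats of the same chemical and time. The chemicals were 1,2-dichlorobenzene, 1,4-dichlorobenzene, N-nitrosomorpholine, bromobenzene, monocrotaline and thioacetamide, given in corn oil by gavage, and diquat dibromide and galactosamine, given in phosphate-buffered saline by intraperitoneal injection. All rats were fasted before exposure, and the groups held 4 rats in most cases, 6 with diquat dibromide, and 2 for thioacetamide vehicle at 6 h and 1,2-dichlorobenzene at 1500 mg/kg and 48 h. A necrosis score from 0 to 4 was recorded for every liver.

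Plasminogen is made by hepatocytes and circulates as an inactive precursor. Urokinase (Plau) and tissue plasminogen activator (Plat) cleave it to plasmin, which dissolves fibrin, and the urokinase receptor (Plaur) holds urokinase at the cell surface. Matrix metalloproteases are secreted or membrane-bound zinc enzymes that cut collagen, elastin and other matrix proteins, and TIMP1, the product of Timp1, is a secreted inhibitor of many of them. In injured liver this system is known for clearing fibrin and dead tissue and for matrix remodelling.

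The 250 bases before the start site were read for 5 of the 8 members from RefSeq (build GRCr8), and 4 are shown because they carry a short match to an AP-1 motif or to a near relative of it. AP-1 is a transcription factor of the Fos and Jun families. Capitals mark TGANTCA in Plaur, Mmp12 and Mmp13, and TGAGTAA in Timp1. The windows are chrX:3771123-3771372 on the minus strand for Timp1, chr1:89181113-89181362 on the plus strand for Plaur, chr8:12866402-12866651 on the plus strand for Mmp12 and chr8:12782579-12782828 on the plus strand for Mmp13. The Timp1 window lies inside the annotated span of the gene, so it precedes an inner start site rather than the outermost one.
Timp1 promoter: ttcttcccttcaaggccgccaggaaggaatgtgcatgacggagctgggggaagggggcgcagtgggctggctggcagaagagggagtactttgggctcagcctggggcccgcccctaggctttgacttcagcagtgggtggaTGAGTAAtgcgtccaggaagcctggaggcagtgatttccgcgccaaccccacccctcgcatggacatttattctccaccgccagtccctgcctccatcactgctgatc
Plaur promoter: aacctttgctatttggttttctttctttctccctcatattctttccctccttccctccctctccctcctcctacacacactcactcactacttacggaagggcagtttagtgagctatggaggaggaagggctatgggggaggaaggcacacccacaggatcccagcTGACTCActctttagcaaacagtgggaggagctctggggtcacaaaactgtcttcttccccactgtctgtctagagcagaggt
Mmp12 promoter: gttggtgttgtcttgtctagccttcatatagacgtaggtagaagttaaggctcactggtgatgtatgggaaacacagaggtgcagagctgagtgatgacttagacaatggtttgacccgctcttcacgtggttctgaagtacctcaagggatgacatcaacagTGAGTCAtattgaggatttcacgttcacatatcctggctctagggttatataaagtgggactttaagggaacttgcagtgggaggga
Mmp13 promoter: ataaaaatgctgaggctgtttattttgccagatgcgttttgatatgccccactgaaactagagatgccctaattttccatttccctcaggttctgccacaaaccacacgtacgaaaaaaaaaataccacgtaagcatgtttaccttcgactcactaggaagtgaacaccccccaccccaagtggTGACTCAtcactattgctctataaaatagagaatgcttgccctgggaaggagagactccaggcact
The 7-base match starts 83 bases before the start site in Plaur, 87 bases before it in Mmp12, 66 bases before it in Mmp13 and 108 bases before it in Timp1. TGANTCA, searched on both strands, was present in 6.34% of all promoter windows of this length in the table, and TGAGTAA, which was searched for with the Timp1 sequence in view, in 2.38%. GGGCGG, the core of the Sp1 motif, searched on both strands, lay in the Plau window 3 times and in the Timp1 window 1 time. That motif was present in 30.5% of windows. TATAAA lay in the Mmp12 and Mmp13 windows and in 12.9% of all windows. These are matches of letters, and no binding was measured.

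The deposited values were array signals on a log2 scale, and they are quoted here as signals in the arbitrary units of each array, which the authors scaled to a common trimmed mean of 500. Signals of different genes are not comparable, since each probe set has its own response. Every change is dosed minus vehicle on the log2(signal + 16) scale, which understates the change of dim genes. The correlation between arrays of 1 group was at least 0.847, and 8 arrays stood apart in having at most 8% of probe sets under a signal of 16, against a median of 14.8%. Without these 8 arrays the members' totals of 149 higher and 4 lower calls, given next, were the same, and no gene's count of higher calls moved by more than 1. The summed signal of 9 hepatocyte markers ran from 343784 to 488684 in the vehicle livers of bromobenzene at 24 h, so the hepatocyte signal of the labelled tissue was present. A gene was called where its limma p-value, adjusted over all genes of that contrast by the Benjamini-Hochberg method, was under 0.05. These are whole-liver RNA samples, in which more cells of a type and more RNA per cell cannot be told apart.

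Over 74 contrasts of a dosed group with its vehicle, the 8 members were called higher 149 times and lower 4 times in 592 tests, or 25.2% higher, against 8.76% higher and 6.9% lower over all genes. The members were chosen with earlier results of these data known, so this excess and the later comparisons with all genes do not test the system. Of its other genes, 16 of the plasminogen system were called higher in 7.6% of tests, 13 metalloproteases in 6.24% and 5 inhibitors in 11.9%. Timp1 and Plaur rose in 28 contrasts each, Mmp12 in 20, Plau, Plat and Mmp14 in 19 each, Mmp9 in 10 and Mmp13 in 6. The only falls were of Mmp14, in 3 contrasts, and of Plat, in 1, and all 4 were with a dichlorobenzene. Of the 149 higher calls, 116, or 19.6% of all 592 tests, had every dosed rat above every vehicle rat, and 7.06% of tests over all genes were called in that way. By gene these were 24 of the calls of Timp1, 20 of Plaur, 17 of Mmp14, 16 of Mmp12, 15 of Plau, 14 of Plat, 7 of Mmp9 and 3 of Mmp13. At the highest labelled dose the members were called higher in 49.5% of tests, against 16.5% for all genes. At the lowest dose they were called higher in 3.65%, against 1.56% for all genes.

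**Figure D1:**
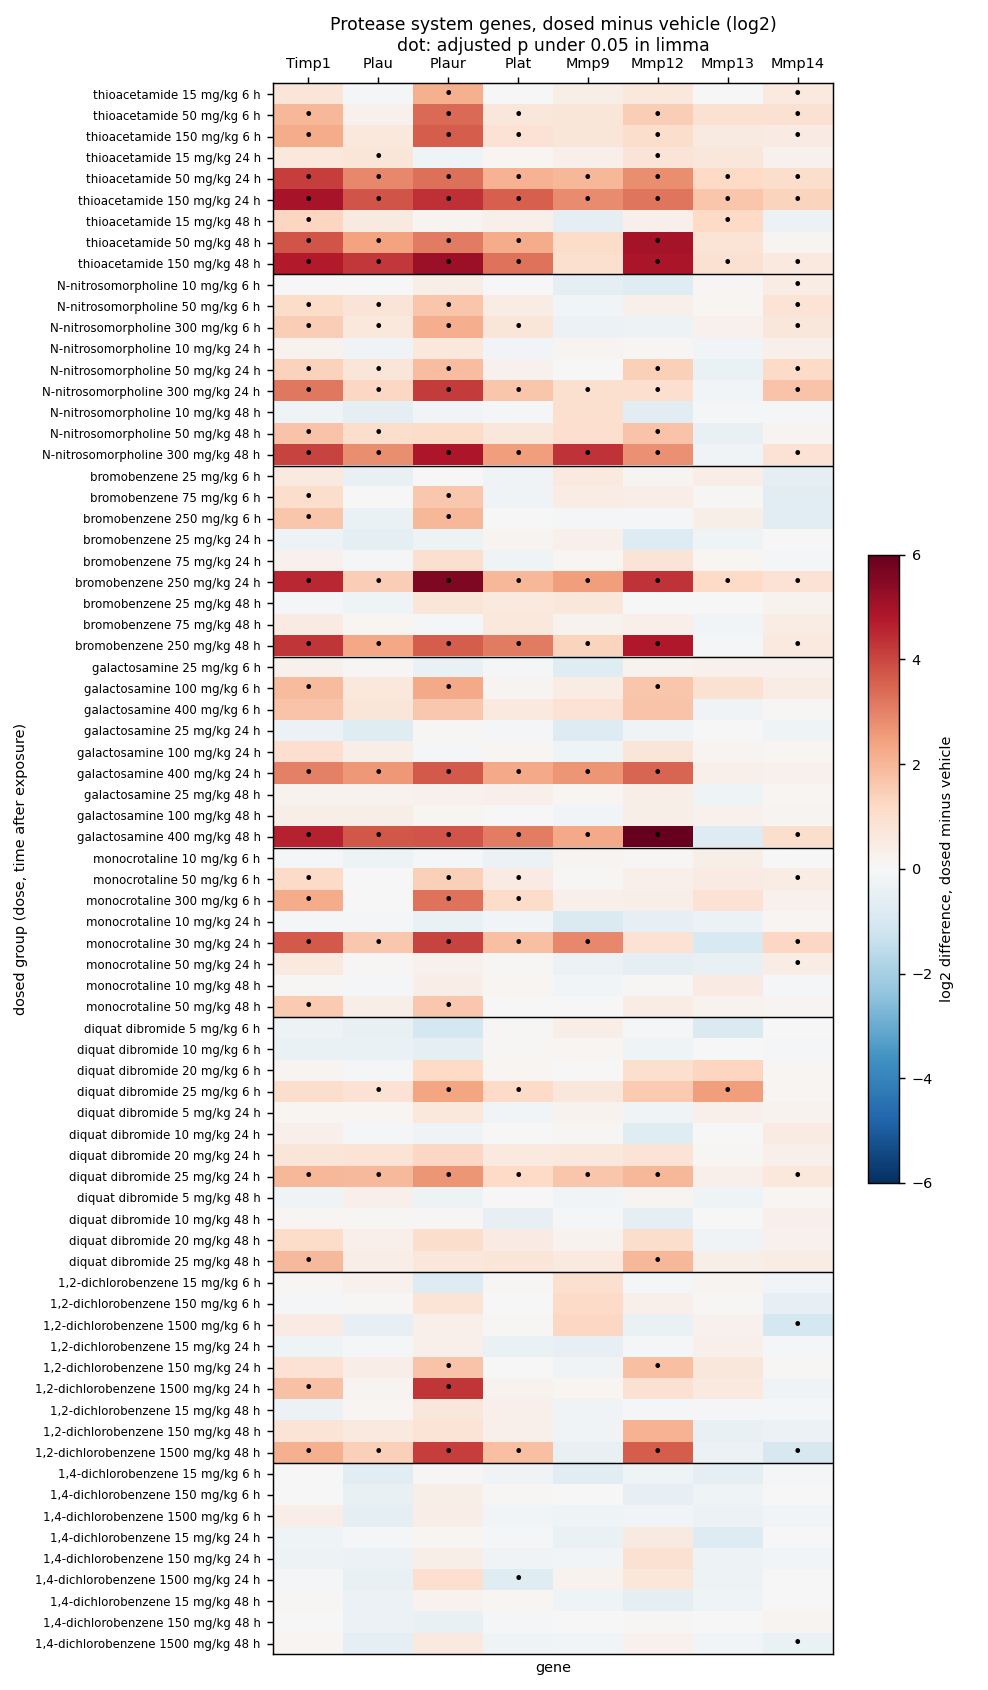
Change of each member, dosed minus vehicle on the log2(signal + 16) scale, for all 74 contrasts, grouped by compound and time with dose low to high. Timp1 and Plaur, called higher in 28 contrasts each, have the most marked cells, and Mmp13, called in 6, has the fewest.

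TIMP1, the secreted metalloprotease inhibitor, had the highest number of calls together with the urokinase receptor. At 24 h after 150 mg/kg thioacetamide the Timp1 signal was 7334, 7990, 9745 and 7910 in dosed livers, against 142, 245, 567 and 190 in vehicle livers. After 250 mg/kg bromobenzene it was 6592, 6224, 10668 and 7692, against 395, 203, 406 and 313 with vehicle. Every dosed liver lay above every vehicle liver in each case, and the changes were 4.95 ± 0.28 (SE, n = 4 each, adjusted p = 4.15e-19, limma) and 4.51 ± 0.34 (adjusted p = 2.34e-15). N-nitrosomorpholine at 300 mg/kg gave 2600, 1948, 2854 and 2789, against 373, 191, 332 and 203 with vehicle, again without overlap, a change of 3.18 ± 0.26 (adjusted p = 1.14e-14). Monocrotaline at the dose labelled 30 mg/kg gave 3693, 3363, 3043 and 4401, against 269, 207, 276 and 328 with vehicle, a change of 3.67 ± 0.22 (adjusted p = 2.73e-18). The group labelled 50 mg/kg of monocrotaline at 24 h had 497, 516, 384 and 266, which overlapped with the same vehicle rats and was not called, with a change of 0.57 (adjusted p = 0.0925). The order of these monocrotaline groups is the reverse of their labelled doses, and all 4 livers labelled 30 mg/kg had the top necrosis score, whereas the livers labelled 50 mg/kg scored 0 or 1.

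Timp1 split the galactosamine groups. At 24 h after 400 mg/kg it was 8022, 204, 6613 and 8922 in dosed livers, against 319, 353, 532 and 358 in vehicle livers. The second of these dosed livers, below all vehicle livers, was the only one with a necrosis score of 0, and the other scores were 3, 3 and 2. The change was 3.00 ± 0.63 (adjusted p = 0.000189), and 4.29 without that rat, and in a fit of only these groups the adjusted p was 0.0766. The same rat was lowest of its group for Plau, Plaur and Plat as well. At 6 h after 400 mg/kg galactosamine Timp1 was 300, 2942, 2751 and 458, against 314, 343, 340 and 241 with vehicle, and the 2 highest were the 2 livers scored 2. That contrast was not called (change 1.71, adjusted p = 0.0982), whereas 100 mg/kg at 6 h, with 1479, 1145, 1174 and 984, was called with a change of 1.89 ± 0.63 (adjusted p = 0.0346).

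The urokinase receptor gene Plaur was near the bottom of the array's range in vehicle livers and clearly above it in many dosed livers. Its probe set was under 16 on 38.8% of arrays, so that the vehicle level is close to a floor and the fold is uncertain. At 24 h after 250 mg/kg bromobenzene Plaur was 1617, 1544, 2069 and 1463 in dosed livers, against 57.4, 10.9, 12.4 and 8.78 in vehicle livers. N-nitrosomorpholine at 300 mg/kg gave 610, 196, 620 and 644, against 10.5, 15.2, 7.05 and 8.49 with vehicle. The groups did not overlap, with changes of 5.61 ± 0.46 (adjusted p = 2.46e-14) for bromobenzene and 4.21 ± 0.44 (adjusted p = 2.51e-11) for N-nitrosomorpholine. Thioacetamide at 150 mg/kg gave 1139, 852, 1923 and 1120, against 12.9, 63.4, 71.7 and 42.5 with vehicle, and the change was 4.38 ± 0.35 (adjusted p = 1.25e-14). Monocrotaline labelled 30 mg/kg gave 564, 567, 565 and 713, against 48.2, 17.6, 9.83 and 15.9 with vehicle, and the change was 4.08 (adjusted p = 1.14e-10). Both of these groups lay wholly above their vehicle rats. Galactosamine at 400 mg/kg gave 1009, 19.9, 910 and 1232, against 8.5, 51.1, 12.9 and 16.4 with vehicle, and the rat with no necrosis fell within the vehicle range (change 3.69 ± 0.69, adjusted p = 5.18e-05).

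Plaur was already higher at 6 h with several compounds. After 300 mg/kg monocrotaline at 6 h it was 350, 325, 346 and 368, against 12.1, 9.17, 17.8 and 68.1 with vehicle, with no overlap and a change of 3.27 ± 0.44 (adjusted p = 4.12e-08). A second probe set named for Plaur had a median signal of 12.7, was under 16 on 62.2% of arrays and correlated with the first at 0.0613 over arrays. With the mean of both probe sets the 24 h change after bromobenzene was 2.75 (adjusted p = 4.9e-11) and that after thioacetamide was 1.90 (adjusted p = 1.34e-05), but the second probe set alone showed no such rise. Its signal was 3.8 to 15.2 after bromobenzene, against 2.1 to 36.6 with vehicle, and 9 to 28.7 after thioacetamide, against 15 to 104.3 with vehicle, with mean changes of -0.11 and -0.58. The Plaur changes given here therefore rest on 1 of 2 probe sets. The unused probe sets of the other members with 2 of them were higher with 150 mg/kg thioacetamide at 24 h, by 3.46 for Plau, 2.88 for Mmp9 and 1.72 for Mmp14 (mean changes with no test), and no rats overlapped.

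Urokinase, the ligand of that receptor, was called in 19 contrasts, 3 of them at 6 h. At 24 h after 150 mg/kg thioacetamide Plau was 1741, 1635, 2159 and 1844, against 102, 164, 86.7 and 134 with vehicle. At 48 h it was 3320, 2655, 3961 and 4183, against 210, 203, 136 and 132 with vehicle. No rats overlapped at either time, and the changes were 3.78 ± 0.21 (adjusted p = 3.71e-19) and 4.25 ± 0.21 (adjusted p = 3.01e-21). N-nitrosomorpholine at 300 mg/kg and 24 h gave 777, 506, 581 and 765, against 252, 330, 260 and 213 with vehicle, a change of 1.26 (adjusted p = 5.61e-06). Bromobenzene at 250 mg/kg gave 781, 619, 611 and 509, against 316, 178, 191 and 194 with vehicle, a change of 1.48 (adjusted p = 0.000549). In both the dosed rats lay above all vehicle rats. Galactosamine at 400 mg/kg and 24 h gave 2129, 215, 2047 and 2534, against 121, 180, 193 and 334 with vehicle, where again the rat scored 0 overlapped with vehicle rats (change 2.59 ± 0.52, adjusted p = 0.000111). Plau was called together with Timp1 in 17 of the 19 contrasts in which it was called.

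Tissue plasminogen activator, the fibrin-binding activator, was called higher together with Plau in 15 contrasts. Plat was 3031, 2609, 4298 and 3224 at 24 h after 150 mg/kg thioacetamide, against 231, 219, 284 and 287 with vehicle. It was 1032, 1004, 870 and 1024 after monocrotaline labelled 30 mg/kg, against 290, 274, 318 and 205 with vehicle. Neither pair of groups overlapped, and the changes were 3.59 ± 0.20 (adjusted p = 1.56e-19) and 1.81 ± 0.20 (adjusted p = 1.43e-10). After 250 mg/kg bromobenzene it was 1071, 880, 426 and 1134, against 182, 199, 143 and 289 with vehicle (change 1.98 ± 0.31, adjusted p = 7.46e-07). After 300 mg/kg N-nitrosomorpholine it was 1105, 1133, 630 and 928, against 254, 367, 347 and 201 with vehicle (change 1.65 ± 0.26, adjusted p = 4.44e-07). These groups did not overlap either. After 400 mg/kg galactosamine it was 2054, 178, 2113 and 2578, against 268, 212, 232 and 244 with vehicle, and the rat scored 0 was below all vehicle rats (change 2.26 ± 0.42, adjusted p = 4.03e-05).

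MMP12, the elastase known from macrophages, had the largest change of any member on the log2(signal + 16) scale, whereas with a pseudocount of 1 the 24 h Plaur change after bromobenzene, at 6.58, was above that of Mmp12, at 6.22. At 48 h after 400 mg/kg galactosamine Mmp12 was 7448, 15555, 5237 and 5466 in dosed livers, against 115, 67.7, 102 and 131 in vehicle livers. At 24 h after the same dose it was 2643, 121, 2295 and 4205, against 132, 102, 80.8 and 108 with vehicle. The groups were far apart at 48 h, with a change of 6.02 ± 0.57 (adjusted p = 7.67e-12), and overlapped at 24 h only through the rat scored 0, with a change of 3.51 ± 0.57 (adjusted p = 7e-06). Thioacetamide at 150 mg/kg gave 1104, 706, 960 and 919 at 24 h, against 55.6, 119, 83.5 and 91.7 with vehicle. At 48 h it gave 2676, 5665, 3711 and 5657, against 107, 150, 142 and 117 with vehicle. No rats overlapped, and the changes were 3.20 ± 0.24 (adjusted p = 1.5e-15) and 4.88 ± 0.24 (adjusted p = 8.95e-22). Bromobenzene at 250 mg/kg and 24 h gave 1181, 1227, 2655 and 1021, against 116, 30.3, 26.5 and 78 with vehicle, without overlap (change 4.34 ± 0.44, adjusted p = 1.36e-11).

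With monocrotaline Mmp12 was called in none of 8 contrasts, as was Mmp13, and Plau and Mmp9 were called in 1 each and Timp1 in 4. At the dose labelled 30 mg/kg and 24 h it was 255, 139, 283 and 266, against 65, 123, 155 and 153 with vehicle, overlapping through 1 dosed rat, and was not called (change 0.86 ± 0.43, adjusted p = 0.108). With 300 mg/kg N-nitrosomorpholine it was 127, 95.7, 73.3 and 98.2 at 24 h, against 42, 57.7, 28.8 and 37.8 with vehicle, a change of 1.00 (adjusted p = 0.0251) that was not called in a fit of all arrays (adjusted p = 0.158). At 48 h it was 714, 658, 674 and 703, against 51, 92.9, 110 and 119 with vehicle, well apart (change 2.74, adjusted p = 2.16e-08).

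MMP9, a gelatinase stored in neutrophils among other cells, was dim in vehicle livers and was called in none of 25 contrasts at 6 h. After 300 mg/kg N-nitrosomorpholine it was 54, 37.1, 69.1 and 54.9 at 24 h, against 38.3, 11.7, 31.5 and 5.18 with vehicle. At 48 h it was 718, 648, 518 and 597, against 8.09, 4.99, 9.03 and 57 with vehicle. The 24 h groups overlapped, with a change of 0.97 ± 0.39 (adjusted p = 0.0385, and 0.146 in a fit of all arrays), and the 48 h groups did not, with a change of 4.35 ± 0.39 (adjusted p = 3.22e-13). Monocrotaline labelled 30 mg/kg gave 253, 193, 179 and 527 at 24 h, against 27.3, 10.7, 7.48 and 54.8 with vehicle (change 2.90 ± 0.55, adjusted p = 2.16e-05). Thioacetamide at 150 mg/kg gave 375, 220, 199 and 208, against 14.2, 39, 6.37 and 32.2 with vehicle (change 2.82 ± 0.47, adjusted p = 1.64e-06). Both groups lay above all their vehicle rats. Bromobenzene at 250 mg/kg gave 209, 249, 197 and 116, against 35.1, 36.6, 18.3 and 1.83 with vehicle, without overlap (change 2.50 ± 0.48, adjusted p = 2.32e-05). All 10 contrasts called for Mmp9 were also called higher for Plat.

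MMP14, a membrane-anchored protease that activates other metalloproteases, changed by smaller amounts. At 24 h after 300 mg/kg N-nitrosomorpholine Mmp14 was 4377, 4798, 5054 and 4992, against 1775, 1509, 1484 and 1155 with vehicle. After 150 mg/kg thioacetamide it was 4715, 4455, 5470 and 5173, against 1648, 1739, 2540 and 1900 with vehicle. Dosed rats were above all vehicle rats, and the changes of 1.70 ± 0.11 (adjusted p = 8.01e-18) and 1.35 ± 0.12 (adjusted p = 1.39e-13) had small errors. After monocrotaline labelled 30 mg/kg it was 4133, 3975, 3489 and 4003, against 1702, 1855, 1585 and 1497 with vehicle (change 1.23 ± 0.11, adjusted p = 1.97e-12). After 400 mg/kg galactosamine it was 2650, 1356, 2925 and 3238, against 2013, 1656, 2094 and 2281 with vehicle, overlapping, and was not called (change 0.27, adjusted p = 0.275). Mmp14 was the only member called in monocrotaline labelled 50 mg/kg at 24 h, with 2190, 1869, 2174 and 2943 against the same vehicle rats. That change of 0.45 ± 0.11 (adjusted p = 0.00517) was not called without dosed replicate 4, at 0.32 (adjusted p = 0.0552).

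MMP13, a collagenase, was called in the fewest contrasts, and its probe set was under 16 on 18.2% of arrays. After 150 mg/kg thioacetamide at 24 h it was 72.7, 83.1, 106 and 105, against 37.5, 9.89, 35 and 1.7 with vehicle. After 250 mg/kg bromobenzene it was 80.8, 58.2, 65.9 and 139, against 25.9, 44.8, 22.8 and 17.9 with vehicle. Neither overlapped, but the changes were modest, at 1.67 ± 0.38 (adjusted p = 0.000221) and 1.19 ± 0.39 (adjusted p = 0.0125). The bromobenzene call was lost without dosed replicate 4, at 0.97 (adjusted p = 0.0646). The thioacetamide call was lost with the hybridisation day as a fixed block in a fit of all arrays, at 0.74 (adjusted p = 0.481), where only the bromobenzene call of Mmp13 was made, at 1.39 (adjusted p = 0.0227).

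**Figure D2:**
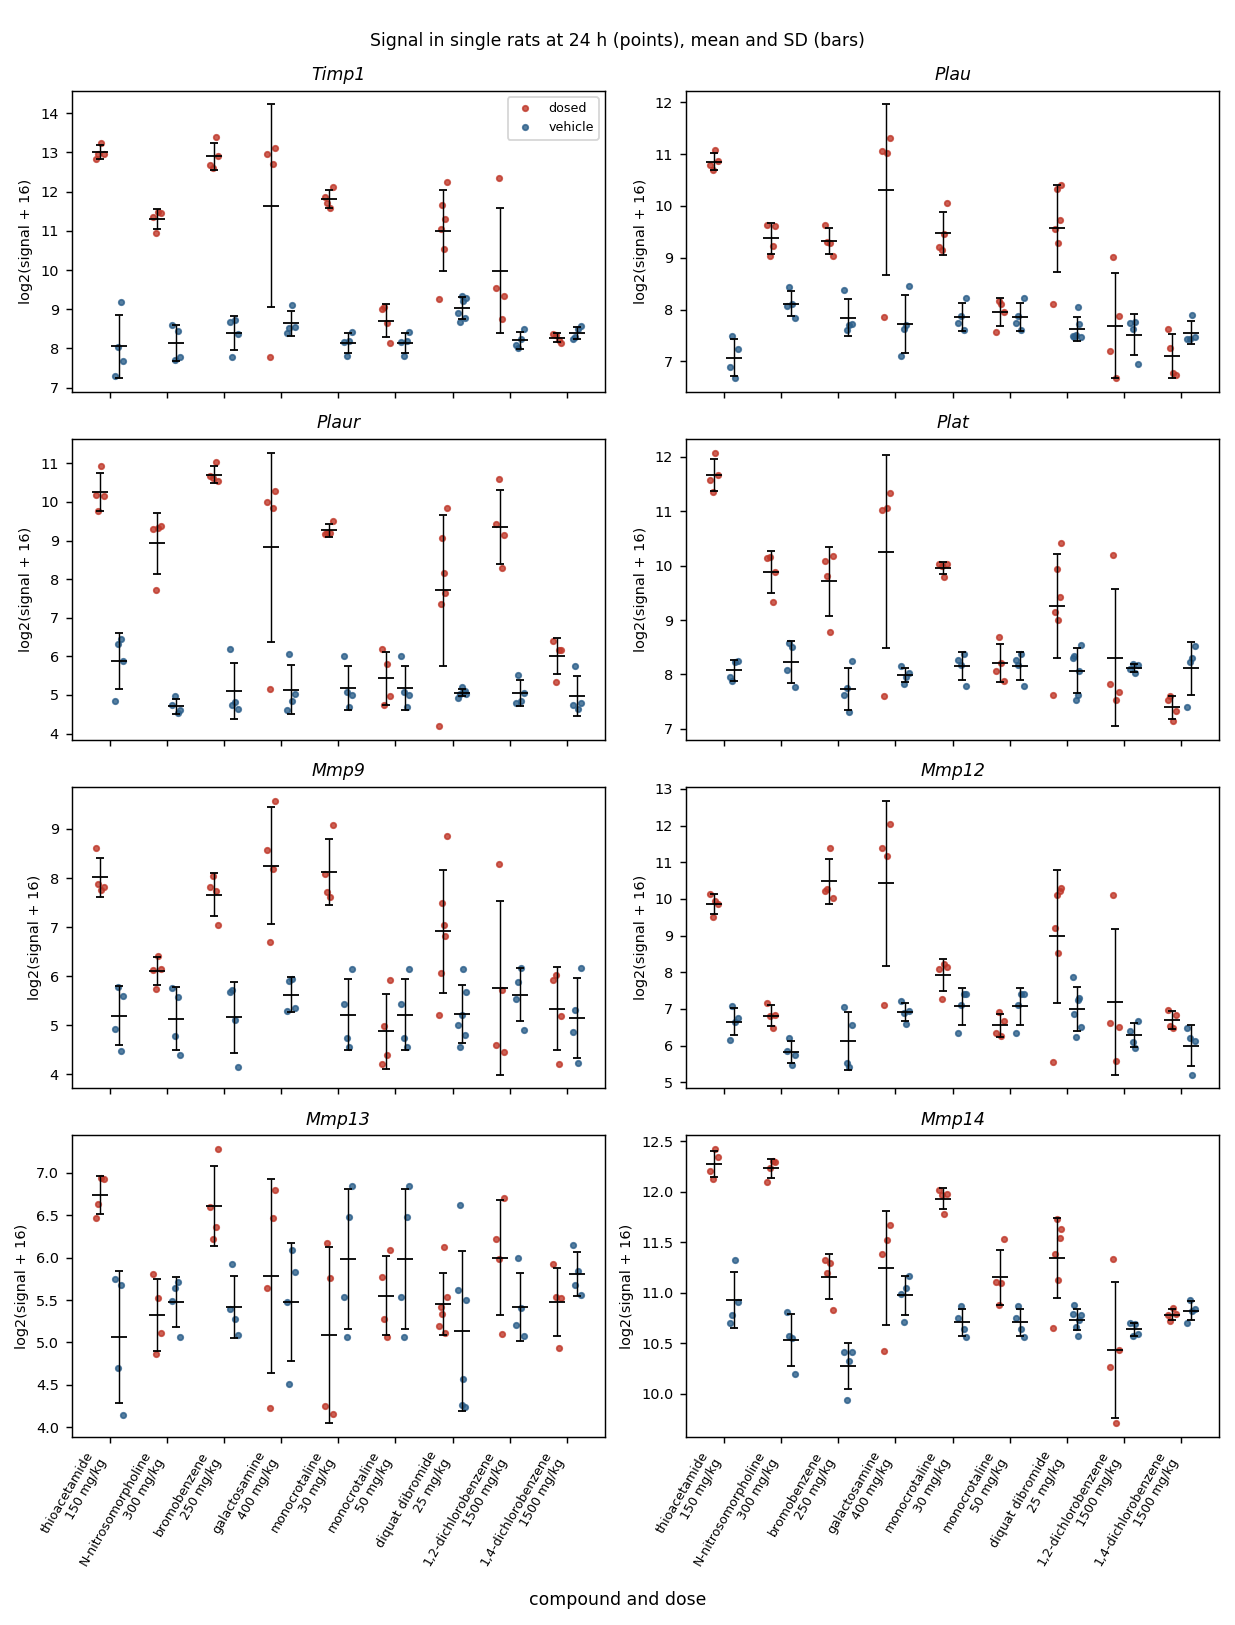
Signal of each rat at 24 h on a log axis, for the 8 members, with dosed rats left of the vehicle rats of the same compound, at the highest labelled dose and for monocrotaline at 30 and 50 mg/kg. The galactosamine rat with a score of 0 lies with the vehicle rats for Timp1, Plau, Plaur, Plat and Mmp12, with 204 for Timp1 against 6613 to 8922 in the other 3.

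Counted by contrast at 24 h and the highest dose, all 8 members rose with thioacetamide, where 30.5% of all genes were called higher, and with bromobenzene, where 23.5% were. With N-nitrosomorpholine 7 members rose, against 27.2% of genes, and with galactosamine 6 rose, against 21.4%. With monocrotaline labelled 30 mg/kg 6 members rose, against 25.8% of genes, and with the dose labelled 50 mg/kg 1 rose, against 6.07%. With diquat dibromide at 25 mg/kg 7 members rose, against 12% of genes. With 1,2-dichlorobenzene at 1500 mg/kg only Timp1 and Plaur rose, against 22.3% of genes, a share near the background, and with 1,4-dichlorobenzene no member rose, against 18.6%. The median change of the 8 members was 3.40 with thioacetamide, against 0.04 for all genes, and 2.24 with bromobenzene, against 0.17 for all genes. It was 2.61 with galactosamine, against 0.10 for all genes, and 1.46 with N-nitrosomorpholine, against 0.07 for all genes.

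Markers of other cells moved in the same contrasts. The measured neutrophil markers were S100a8, S100a9, Csf3r, Cxcr2, Lcn2, Itgam and Itgb2, and Mpo, Elane and Fpr1 were not measured. A summed signal is led by its brightest genes, so it does not measure a number of cells. Of 7 measured neutrophil markers, all rose at 24 h with bromobenzene, N-nitrosomorpholine and monocrotaline labelled 30 mg/kg, 6 rose with thioacetamide and 5 each with galactosamine and diquat dibromide. Their summed signal was 36378 to 56446 in bromobenzene livers, against 948 to 1346 with vehicle, and 9252 to 14905 in thioacetamide livers, against 722 to 1156 with vehicle. In galactosamine livers it was 1016 to 17003, against 804 to 2525 with vehicle. Monocrotaline labelled 50 mg/kg, with 1 member called, had 831 to 1090, against 842 to 1235 with vehicle, and none of the 7 rose. Of 10 measured macrophage markers, 7 rose with thioacetamide and 7 with galactosamine, 4 each with bromobenzene, N-nitrosomorpholine and monocrotaline labelled 30 mg/kg and 5 with diquat dibromide. Others of the 10 fell in the same contrasts, 1 with thioacetamide, 2 each with bromobenzene, N-nitrosomorpholine and diquat dibromide, 3 with monocrotaline labelled 30 mg/kg and 0 with galactosamine. Their summed signal was 62260 to 76166 in thioacetamide livers, against 14747 to 15530 with vehicle, and 16846 to 101334 in galactosamine livers, against 13913 to 16910 with vehicle. The 9 hepatocyte markers summed to 276616 to 293566 in thioacetamide livers, against 376533 to 472653 with vehicle. Over all contrasts the shares called higher were 20.5% for neutrophil, 17% for macrophage, 14.5% for stellate cell, 11% for endothelium, 6.22% for lymphocyte and 2.7% for hepatocyte markers. The shares called lower were 0.772% for neutrophil, 8.11% for macrophage, 6.76% for stellate cell, 9.8% for endothelium, 0.541% for lymphocyte and 19.2% for hepatocyte markers, against 8.76% higher and 6.9% lower for all genes. The macrophage markers moved in both directions. Lgals3 and Gpnmb, of activated macrophages, rose in 29 and 25 contrasts, whereas Clec4f, of resident Kupffer cells, rose in none and fell in 14, Cd14 rose in 2 and fell in 15, Adgre1 rose in 5 and fell in 12 and C1qa rose in 7 and fell in 9. S100a8, a calcium-binding protein of neutrophils, rose in 20. The part of these cells in the members' changes was not tested.

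By time, the members were called higher in 20% of tests at 6 h, in 31% at 24 h and in 24.5% at 48 h, against 6.59%, 11% and 8.64% of all genes at those times. At the highest dose, counting the 50 mg/kg label for monocrotaline at 24 h, they were called higher in 29.7% of tests at 6 h, 60.9% at 24 h and 57.8% at 48 h, against 9.37%, 20.2% and 19.8% of all genes. At 6 h the calls came from every member except Mmp9, and Mmp9 was called in 7 contrasts at 24 h and 3 at 48 h. Timp1 and Plaur were called together in 25 contrasts, each without the other in 3. All members other than Mmp13 were called in 8 contrasts, and in 3 of these Mmp13 was called as well. In 37 contrasts no member was called higher. Of the other contrasts whose calls are quoted, the share of all genes called higher was 18.3% for monocrotaline at 300 mg/kg and 6 h, 4.7% for galactosamine at 100 mg/kg and 6 h and 1.08% at 400 mg/kg and 6 h. At 48 h and the highest dose it was 36.1% for thioacetamide, 30.2% for galactosamine and 30.1% for N-nitrosomorpholine.

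The members' calls followed the necrosis score of the dosed rats. In the 25 contrasts in which every dosed liver scored 0, 1 of 200 member tests was called higher, or 0.5%, against 1.24% of all genes. In the 24 contrasts in which every dosed liver scored at least 1, the share was 58.9%, against 18.4% of all genes. In the 8 contrasts in which every dosed liver scored at least 3, it was 87.5%, against 26.9%. Over single dosed rats, the median Timp1 change against the vehicle mean of the same compound and time was 0.04 at score 0, 1.24 at score 1, 1.79 at score 2, 3.53 at score 3 and 4.29 at score 4. The medians for Plaur were -0.07, 1.58, 2.47, 4.11 and 4.48 over the same scores. Those for Mmp12 were -0.01, 0.79, 2.16, 3.29 and 3.31. The rats behind each median numbered 164 at score 0, 82 at score 1, 29 at score 2, 14 at score 3 and 29 at score 4, and the compounds are not spread evenly over the scores. All rats scored 3 or 4 had more Timp1 and more Plaur than every vehicle rat of their compound and time, as did 23.2% and 22.6% of the rats scored 0. At score 0 this share ran from 14% for Plau to 28.7% for Mmp14. Most vehicle groups held 4 rats, so a rat without a change can lie above all of them. A score of 0 did not always go with a level near vehicle: in thioacetamide at 50 mg/kg and 48 h the 2 dosed livers scored 0 were 3.65 and 3.95 above the vehicle mean for Timp1 and 4.52 and 5.29 above it for Mmp12. A liver scored 0 in diquat dibromide at 20 mg/kg and 48 h was 3.03 above it for Timp1 and 3.86 for Mmp12. The share of rats above every vehicle rat for Mmp13 was 44.8% at score 4 and 19.5% at score 0.

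To compare rats that had the same compound, dose and time, the score was fitted as a number within groups, which draws on the 38 groups, of 174 rats, whose scores varied. The slope per score step was 0.62 ± 0.05 for Timp1 (SE, adjusted p = 3.08e-25), 0.74 ± 0.08 for Plaur (adjusted p = 3.38e-18) and 0.72 ± 0.07 for Mmp12 (adjusted p = 5.3e-21). It was 0.45 ± 0.07 for Mmp9 (adjusted p = 6.54e-09), 0.39 ± 0.04 for Plat (adjusted p = 3e-18) and 0.35 ± 0.05 for Plau (adjusted p = 6.03e-12). For Mmp14 it was 0.14 ± 0.02 (adjusted p = 4.16e-08), and for Mmp13 it was 0.15 ± 0.07 and not called (95% interval 0.02 to 0.28, adjusted p = 0.0626). Thus 7 of the 8 slopes were called higher, where 20.1% of all genes were called higher and 18.3% lower, and the median slope of all genes was 0.01. The Mmp13 slope was -0.01 (adjusted p = 0.945) without the diquat dibromide rats.

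**Figure D3:**
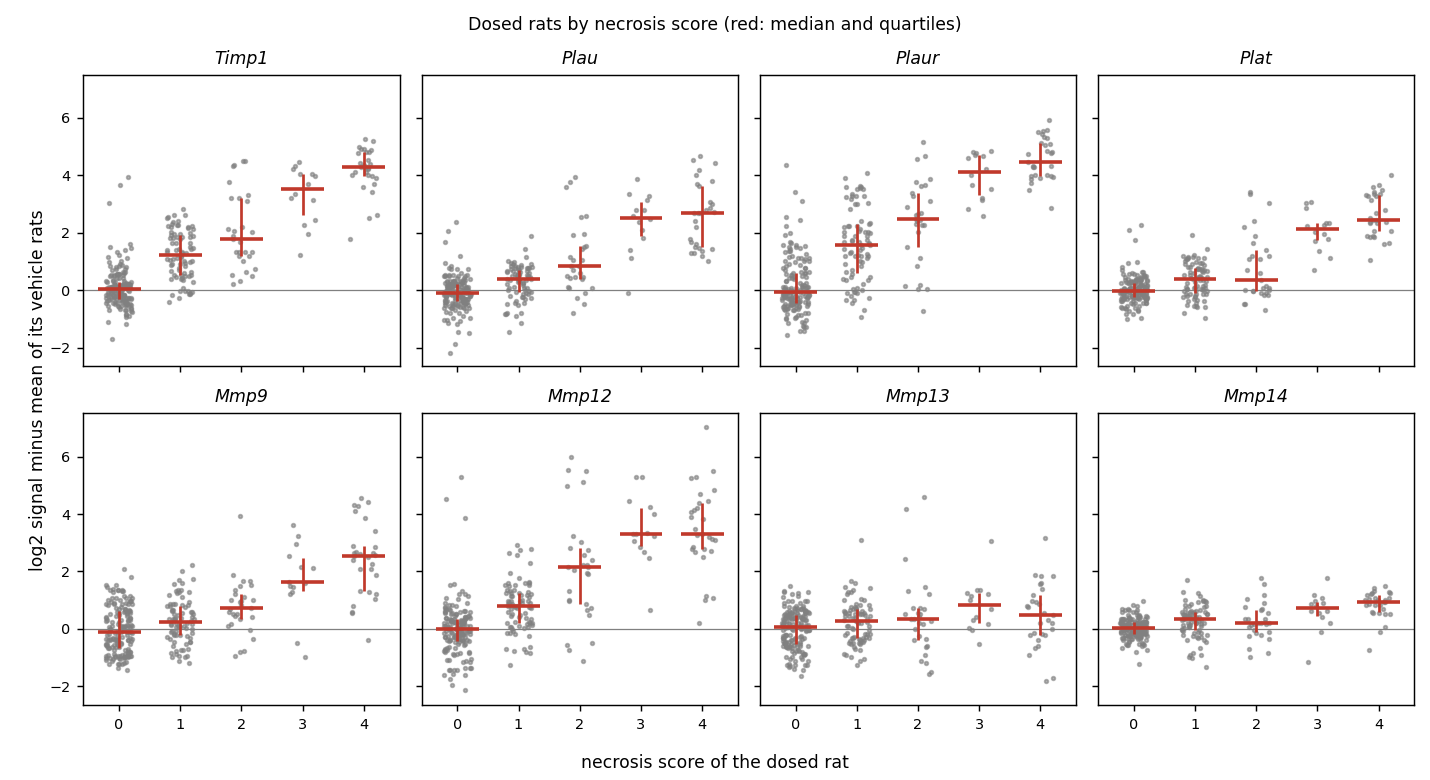
Change of each dosed rat against the mean of its vehicle group, log2(signal + 16) scale, by necrosis score from 0 to 4, with the median of each score as a horizontal bar and the quartiles as a vertical bar. The Timp1 median runs from 0.04 at score 0 to 4.29 at score 4, and the Mmp13 median stays under 1 at every score.

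Diquat dibromide at 25 mg/kg gave groups whose rats ranged from no necrosis to the top scores. At 24 h the scores were 0, 2, 4, 0, 3 and 3 and Timp1 was 598, 2097, 3201, 1466, 2496 and 4851 in the same rats, against 390 to 634 in 6 vehicle rats. Both rats scored 0 had the lowest Timp1 of the group, and the change was 1.98 ± 0.48 (adjusted p = 0.00146) with overlap. Plau was 261, 734, 1271, 608, 828 and 1333, against 161 to 248 with vehicle, all above vehicle (change 1.95 ± 0.34, adjusted p = 2.69e-05). Plat was 180, 552, 961, 496, 671 and 1357, against 169 to 356 with vehicle, with overlap (change 1.19 ± 0.32, adjusted p = 0.00411). Mmp12 was 31.2, 580, 1076, 352, 1177 and 1241, against 58.8 to 219 with vehicle. The first rat, with a score of 0, was below every vehicle rat for Mmp12, and the change of 1.99 ± 0.64 (adjusted p = 0.0182) was not called without dosed replicate 6 (1.72, adjusted p = 0.0688). Mmp9 was likewise called at 1.68 (adjusted p = 0.0121) and not without that rat, at 1.29 (adjusted p = 0.082). The summed signal of the 7 neutrophil markers was 941 to 18564 in these dosed livers, against 762 to 1326 with vehicle, and its part in the changes was not tested.

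At 6 h the same dose gave scores of 0, 2, 3, 0, 1 and 4. Plaur was 33, 878, 1221, 14, 624 and 1455, against 15.4 to 126 with vehicle. Mmp13 was 54.2, 842, 372, 75.3, 388 and 404, against 11.5 to 140 with vehicle. For both genes the 4 rats with a score were above every vehicle rat and the 2 rats scored 0 were within or below the vehicle range. The change of Mmp13, 2.51 ± 0.52 (adjusted p = 0.00012), was its largest in the study, and that of Plaur was 2.37 ± 0.69 (adjusted p = 0.006). By 24 h Mmp13 was 18.5 to 53.7 in dosed rats, against 2.96 to 82 with vehicle, and was not called (change 0.32, adjusted p = 0.716). Timp1 at 6 h was 586, 2014, 3457, 789, 2334 and 5093, against 692 to 1060 with vehicle, with the 2 rats scored 0 below or inside the vehicle range (change 1.07, adjusted p = 0.0912). In this contrast 10.3% of all genes were called higher. The vehicle rats of diquat dibromide included 3 with a score above 0.

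**Figure D4:**
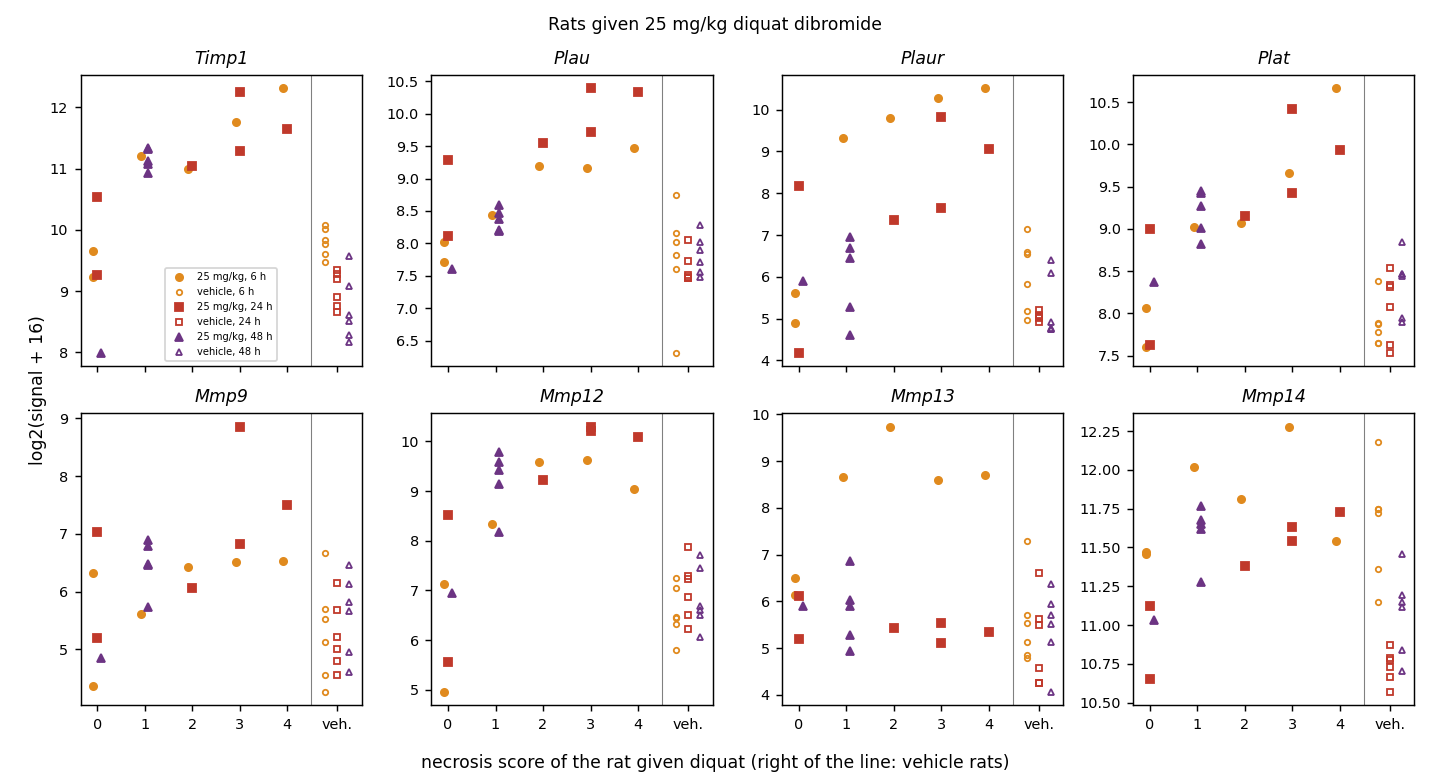
Signal of each rat given diquat dibromide at 25 mg/kg, on a log axis against its necrosis score, at 6, 24 and 48 h. The vehicle rats of each time stand right of a line and are not placed by their score. At 6 h the Plaur signal of dosed rats is 14 and 33 at score 0 and 624 to 1455 at scores of 1 to 4.

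The dichlorobenzene isomers, which differ in whether the chlorines sit on adjacent or on opposite carbons of the ring, shared their doses and times. The difference of their changes, 1,2- minus 1,4-dichlorobenzene, was tested for the 8 members at 9 combinations of dose and time, and p-values were adjusted over all genes within each. Members differed in 8 of 72 tests, all at 1500 mg/kg, and in none at 15 or 150 mg/kg. Most of these calls were not made with the hybridisation day as a fixed block. After 1,4-dichlorobenzene at 1500 mg/kg and 24 h no day was shared with vehicle rats, so day and dose cannot be told apart there. At 15 mg/kg 0.141% of all genes differed at 6 h and 0% at 24 and 48 h, and at 150 mg/kg 9.2%, 15.2% and 0.893% differed at 6, 24 and 48 h. At 1500 mg/kg 5.77% of all genes differed at 6 h, 21.2% at 24 h and 20.2% at 48 h. Timp1 at 24 h was 728, 5157, 411 and 626 after 1,2-dichlorobenzene, against 255, 243, 287 and 344 with its vehicle. After 1,4-dichlorobenzene it was 317, 308, 282 and 264, against 288, 298, 342 and 366 with its vehicle. The 1,2-isomer rats were all above their vehicle rats and the 1,4-isomer rats were not, and the changes of 1.78 and -0.13 differed by 1.91 (95% interval 0.96 to 2.87, adjusted p = 0.00153). The rat with 5157 had a score of 4 and the others scored 0 or 1, and the change with the 1,2-isomer was 0.99 (adjusted p = 0.00853) without that rat. The summed signal of the 7 neutrophil markers was 458 to 43181 after the 1,2-isomer, against 760 to 1002 with its vehicle, and 565 to 1000 after the 1,4-isomer, against 731 to 1168 with its vehicle. Its part in the difference was not tested.

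Plaur at 24 h was 670, 1533, 295 and 545 after 1,2-dichlorobenzene, against 11.7, 29.6, 12.8 and 17.1 with its vehicle. After 1,4-dichlorobenzene it was 68.7, 24.1, 55.5 and 55.2, against 10.6, 37.9, 8.79 and 11.9 with its vehicle. The 1,2-isomer rats stood clear of their vehicle rats and the 1,4-isomer rats overlapped with theirs, and the changes of 4.31 and 1.03 differed by 3.28 (1.63 to 4.92, adjusted p = 0.00162). At 48 h the difference was 2.00 for Timp1 (0.93 to 3.07, adjusted p = 0.00341), 3.57 for Plaur (1.73 to 5.41, adjusted p = 0.00234) and 3.38 for Mmp12 (1.76 to 5.00, adjusted p = 0.000988). It was 2.07 for Plat (1.17 to 2.96, adjusted p = 0.000274) and 1.97 for Plau (0.94 to 3.00, adjusted p = 0.0029). These 48 h values rest on 2 rats of the 1,2-isomer, scored 4 and 3, with Mmp12 at 890 and 1442, against 39.5 to 120 with vehicle. The Plaur difference at 48 h was not called without replicate 1 of each group (2.75, adjusted p = 0.113).

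The isomers were not shown to differ for Mmp12 at 24 h (difference 0.22, interval -1.23 to 1.67), for Mmp13 at 24 h (0.91, -0.14 to 1.96, adjusted p = 0.242) or for Plat at 24 h (0.90, 0.10 to 1.70, adjusted p = 0.107). Plat at 24 h was 212, 1156, 168 and 189 after the 1,2-isomer, against 257, 276, 244 and 271 with its vehicle, and only the rat scored 4 was above vehicle. After the 1,4-isomer it was 170, 178, 125 and 144, against 152, 283, 300 and 350 with its vehicle, and was called lower (change -0.71 ± 0.23, adjusted p = 0.0118), a call lost without dosed replicate 3 (-0.62, adjusted p = 0.0511) or vehicle replicate 4 (-0.57, adjusted p = 0.0694). In that contrast 14.7% of all genes were called lower. Mmp14 fell with the 1,2-isomer at 6 h, where it was 1708, 1126, 1596 and 1229, against 2399, 3257, 2541 and 3416 with vehicle. The groups did not overlap (change -1.03 ± 0.19, adjusted p = 0.000158, with 7.36% of all genes called lower), and the isomers differed by -0.87 (-1.31 to -0.43, adjusted p = 0.00857). At 48 h Mmp14 was 1274 and 948, against 1975 to 2306 with vehicle (change -0.94 ± 0.24, adjusted p = 0.00164, with 11.8% of all genes called lower). With dosed replicate 2 left out the change was -0.70, from the rat that remained. Mmp14 was also called lower with the 1,4-isomer at 1500 mg/kg and 48 h, where 1403 of 14217 genes were called lower. It was 1582, 1674, 1609 and 1470, against 1953, 2421, 2016 and 2121 with vehicle, without overlap. The isomers were not called different for Mmp14 at 48 h.

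**Figure D5:**
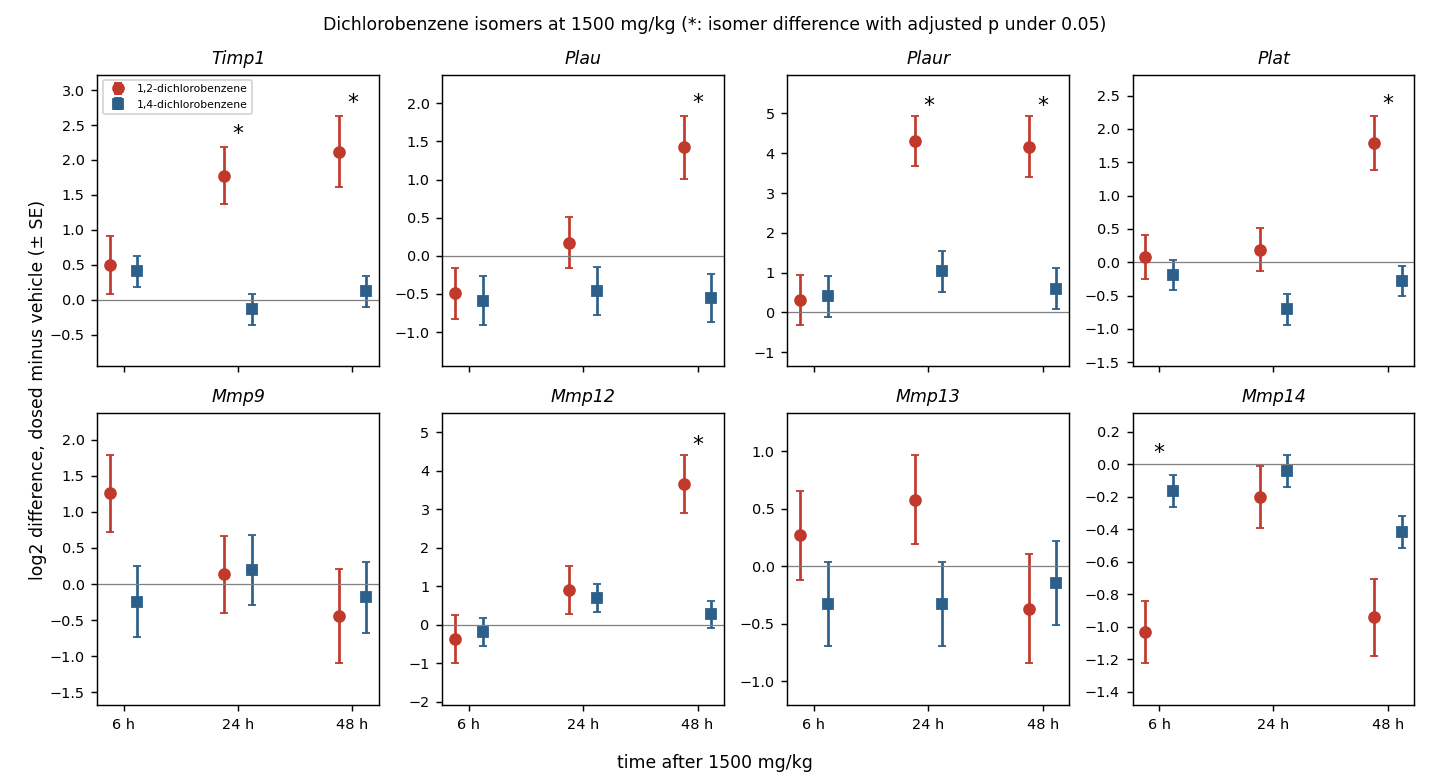
Change of each member with 1,2-dichlorobenzene and with 1,4-dichlorobenzene, each minus its own vehicle on the log2(signal + 16) scale. Bars are standard errors, and the highest dose is drawn by time. At 24 h the Plaur changes are 4.31 and 1.03, and the lower doses are not drawn.

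Of the rest of the plasminogen system, 16 genes were analysed, and over all contrasts they were called higher in 7.6% of tests and lower in 24.3%. Plg, which encodes plasminogen, fell in 28 contrasts and rose in none. At 24 h it changed by -1.39 ± 0.10 with 250 mg/kg bromobenzene, -1.31 ± 0.09 with monocrotaline labelled 30 mg/kg and -1.22 ± 0.10 with 150 mg/kg thioacetamide. With 400 mg/kg galactosamine it was not called at 24 h (-0.04, adjusted p = 0.912). Lrp1, a hepatocyte receptor that clears activator and inhibitor complexes, fell in 37 contrasts and rose in none, by 1.45 with 300 mg/kg N-nitrosomorpholine at 24 h. F12, coagulation factor XII, fell in 30 contrasts and rose in 2. S100a10, a subunit of the annexin A2 complex that binds plasminogen at the cell surface, rose in 32 contrasts and fell in none, by 4.70 ± 0.30 with 150 mg/kg thioacetamide at 24 h.

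The 13 other metalloproteases were called higher in 6.24% of tests and lower in 5.82%, against 8.76% and 6.9% of all genes. Mmp3, stromelysin-1, rose in 22 contrasts and fell in none, by 5.30 ± 0.46 with 250 mg/kg bromobenzene at 24 h (adjusted p = 1.33e-13). Mmp10, stromelysin-2, rose in 12 and fell in 1, whereas Mmp15, a membrane-bound relative of Mmp14, fell in 16 and rose in none. Mmp19 fell in 10 and rose in 4. Among 5 other inhibitors, called higher in 11.9% of tests and lower in 3.24%, A2m, the broad plasma inhibitor alpha-2-macroglobulin, rose in 11 contrasts, by 6.82 ± 0.35 with 250 mg/kg bromobenzene at 24 h (adjusted p = 2.78e-21). Timp2 rose in 15 contrasts and fell in 4, Timp3 rose in 10 and fell in 4, and Reck, a membrane-anchored inhibitor, rose in 7 and fell in 4. The 12 matrix substrates were called higher in 13.3% of tests and lower in 8%. Col4a1, of basement membrane collagen, rose in 19 contrasts and fell in none, and Lamc1, a laminin chain, rose in 19 and fell in 3. Fn1, fibronectin, fell in 27 and rose in 1, and Col3a1, a fibrillar collagen, fell in 15 and rose in 5. The 8 measured genes of surface and secreted ADAM proteases were called higher in 15.7% of tests and lower in 1.01%. Adamts1, Adamts4, Adam8 and Adam17 rose in 21, 20, 19 and 17 contrasts and fell in at most 1, and Adam8, known from leukocytes, rose by 5.76 ± 0.29 with 300 mg/kg N-nitrosomorpholine at 24 h (adjusted p = 3.1e-21).

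Across the 98 group means, which share vehicle groups, compounds and array batches, the members differed in the genes most like them. The 3 genes with the highest Pearson r were Plscr1 (0.938), Lilrb4 (0.937) and Procr (0.935) for Timp1. For Plaur they were Inhbb (0.932), Procr (0.924) and Tubb6 (0.923), and Timp1 and Plaur themselves correlated at 0.893. For Plau they were Msn (0.943), Cd300a (0.941) and Lcp1 (0.935), and for Plat Lpl (0.952), Flna (0.942) and Msn (0.938). Mmp12 was most like Slc25a24 (0.913), Col4a1 (0.912) and S100a6 (0.903), and Mmp9 most like Srgn (0.848), C3h15orf48 (0.837) and Tagap (0.832). The values were lower for Mmp14, with Sh2b3 (0.795), Ids (0.792) and Notch1 (0.786), and for Mmp13, with Slc5a3 (0.622), Csrnp1 (0.608) and Loricrin (0.602). Mmp13, the dim member called in 6 contrasts, had the weakest likeness to any gene.

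Arrays were hybridised on 39 labelled days, and 36 contrasts had no day shared by dosed and vehicle rats, including thioacetamide, galactosamine, diquat dibromide and 1,4-dichlorobenzene at 24 h and the highest dose, where day and dose cannot be told apart in the direct comparison. With N-nitrosomorpholine at 300 mg/kg and 24 h, the 1 day with 4 dosed rats and 1 vehicle rat gave 3.61 for Timp1, 3.96 for Plaur, 0.94 for Plau, 1.30 for Plat, 1.31 for Mmp9, 0.62 for Mmp12, -0.32 for Mmp13 and 1.66 for Mmp14. With bromobenzene at 250 mg/kg, the 1 day with 2 dosed and 4 vehicle rats gave 4.76 for Timp1, 5.68 for Plaur, 1.32 for Plau, 1.74 for Plat, 2.23 for Mmp9, 4.57 for Mmp12, 1.40 for Mmp13 and 0.79 for Mmp14. Monocrotaline labelled 30 mg/kg and 1,2-dichlorobenzene at 1500 mg/kg shared 1 day with all their 24 h vehicle rats, so the changes given above are within-day values. With the day as a fixed block in a fit of all arrays, 60 contrasts could be fitted and the members were called higher 78 times, against 111 times in the same contrasts without the block, and no member was called for diquat dibromide at 25 mg/kg and 24 h.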

How the data were processed

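Rat liver RNA was measured on 418 arrays (1 colour, 1 array per rat), and the deposited values were log2 signals that the authors made with MAS5, with the 2% trimmed mean of each array scaled to 500, as tested on the values. No source used here states which version of MAS5. Of 31099 probe sets, 57 controls were left out, the platform's table gave 1 symbol for 20826, more than 1 for 436 and no symbol for 9780, which left 14217 genes, each read from its probe set with the highest mean signal. Values were analysed as log2(signal + 16). No value column was left unmapped, and no arrays were identical. The number of arrays limits the precision.

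Groups were compound, dose and time as labelled. For each compound, limma (version 3.58.1, in R 4.3.3) was fitted to all its groups with a trended prior, and p-values were adjusted over all genes per contrast (Benjamini-Hochberg). The necrosis score was fitted as a number over all arrays with the group as a block, and the isomers in 1 fit. The steps were tested on simulated data. The labels do not say that rats of a group were housed or dosed apart, so p-values measure the spread between rats.

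The members and gene lists were chosen with earlier results of these data known. All 8 members are named. Of each other list, cell type markers aside, up to 4 genes called in most contrasts are named. The macrophage and neutrophil markers given with counts did not keep to this rule. For likeness the 3 genes with the highest r are named, without locus, clone and predicted names. Alternatives were quantile normalization, centring on the median, pseudocounts of 1 and 64, the mean of probe sets, genes above the median level, other choices of arrays, hybridisation day as a block, other codings of the score, and leaving out replicates. Leaving out the 8 arrays with few dim probe sets was chosen after seeing the data.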

Additional observations from a re-analysis of the deposited data

Results flagged for a closer look

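A rat stood apart from its group in 16 of 136 checks of 1 gene in 1 group at 24 h, where chance gives about 1 in 20. In galactosamine at 400 mg/kg, replicate 2, the liver with a necrosis score of 0, was lowest for Timp1 at 204 (others 6613 to 8922), Plau at 215 (2047 to 2534), Plaur at 19.9 (910 to 1232) and Plat at 178 (2054 to 2578). In diquat dibromide at 25 mg/kg, replicate 1, scored 0, had an Mmp12 signal of 31.2 (others 352 to 1241). In 1,2-dichlorobenzene at 1500 mg/kg, replicate 2, the only one scored 4, had a Plat signal of 1156 (others 168 to 212). In N-nitrosomorpholine at 300 mg/kg, replicate 2, with the lowest score of its group, had a Plaur signal of 196 (others 610 to 644). In these 4 groups the liver set apart was at the lower or upper end of the scores of its group.

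Other dosed rats were set apart by smaller gaps. In monocrotaline labelled 30 mg/kg, replicate 4 had a Plaur signal of 713 (others 564 to 567), replicate 3 a Plat signal of 870 (1004 to 1032) and replicate 2 an Mmp12 signal of 139 (255 to 283). In thioacetamide at 150 mg/kg, replicate 1 had an Mmp9 signal of 375 (199 to 220). Among vehicle rats, replicate 1 of bromobenzene had a Plau signal of 316 (178 to 194) and a Plaur signal of 57.4 (8.78 to 12.4). Replicate 4 of 1,2-dichlorobenzene vehicle had a Plau signal of 107 (182 to 201). In 1,4-dichlorobenzene vehicle, replicate 3 had a Plau signal of 222 (156 to 161) and replicate 2 a Plaur signal of 37.9 (8.79 to 11.9).

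The isomers differed at 1500 mg/kg by the test of the difference itself, 1,2- minus 1,4-dichlorobenzene on the log2 scale, with no block for hybridisation day. The differences were 1.91 at 24 h and 2.00 at 48 h for Timp1, 3.28 at 24 h and 3.57 at 48 h for Plaur, 1.97 at 48 h for Plau, 2.07 at 48 h for Plat, 3.38 at 48 h for Mmp12 and -0.87 at 6 h for Mmp14.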

How the results depend on the processing

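Among named single-gene results, 1433 alternatives kept the direction and the side of the threshold, 72 lost the call, 8 gained one and 1 reversed, and the cause was not tested except where fewer genes or rats were used. The 149 higher calls were 67 among genes above the median level, which holds 3 of the 8 members, 78 with hybridisation day as a fixed block (60 of 74 contrasts could be fitted, with 120 calls in the original fit) and 130 to 145 with replicates left out. The 4 lower calls were 7 with quantile normalization, 8 among genes above the median level and 4 to 7 with replicates left out.

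At 24 h and the highest dose, counting calls in either direction, the members called among genes above the median level were 3 each with N-nitrosomorpholine, bromobenzene, diquat dibromide, thioacetamide and monocrotaline labelled 30 mg/kg, 2 with galactosamine and 1 with 1,2-dichlorobenzene. Monocrotaline labelled 50 mg/kg had 2 with median centring and 0 in a fit of all arrays or with day fixed. In the fit of all arrays 1,4-dichlorobenzene had 0, and in a fit of only the groups compared it had 2 and galactosamine 0 (adjusted p = 0.0585 to 0.0766 for the members that lost the call). With day fixed, thioacetamide had 7, N-nitrosomorpholine 4, diquat dibromide 0 and 1,4-dichlorobenzene 0. With 1 replicate number left out of every group at once, the counts were 8 to 8 for thioacetamide, 7 to 8 for bromobenzene, 5 to 7 for N-nitrosomorpholine and 4 to 7 for diquat dibromide. They were 6 to 7 for galactosamine, 6 to 7 for monocrotaline labelled 30 mg/kg, 1 to 1 for 50 mg/kg, 2 to 3 for 1,2-dichlorobenzene and 0 to 2 for 1,4-dichlorobenzene. The 1 call with 50 mg/kg was lost when only dosed replicate 4 of that group was left out.

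At 24 h centring moved the median change of all genes by over 0.1, from 0.17 to -0.08 with bromobenzene and from 0.10 to -0.11 with galactosamine. It also did so with 1,2-dichlorobenzene at 1500 mg/kg, from 0.091 to -0.037, and diquat dibromide at 25 mg/kg, from -0.033 to 0.09. With monocrotaline it moved from 0.074 to -0.033 at the 30 mg/kg label and from -0.016 to 0.105 at the 50 mg/kg label. The Mmp13 slope of 0.15 per score step reversed to -0.01 (adjusted p = 0.945) without diquat dibromide. It was called at 0.12 (adjusted p = 0.00624) with a pseudocount of 64, at 0.66 (adjusted p = 0.00629) for scores of at least 2 against 0, at 0.14 (adjusted p = 0.000102) with compound and time as the block, at 0.32 (adjusted p = 0.033) in diquat dibromide alone, at 0.18 (adjusted p = 0.0463) without 1,2-dichlorobenzene and at 0.17 without 1,4-dichlorobenzene, thioacetamide or monocrotaline. The 8 isomer calls were 1 with day fixed and 7 to 10 with replicates left out, and the 6 h Mmp14 difference was -0.67 (adjusted p = 0.0884) with the mean of probe sets. No paired analysis was possible because the labels carry no replicate numbers. The replicate numbers used here follow the order of the samples within each group, so the same number in different groups links no rats. Plaur and Mmp9 were near the dim end of the array, which limits the size of their changes.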
